A study of Mus musculus with 11 samples.

Results

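Whole-brain messenger RNA was compared between mice that lack β4, a subunit of nicotinic acetylcholine receptors, and wild-type mice, on the 6 arrays of this kind whose RNA was closest in a 3′ to 5′ control ratio. The series holds 11 brains with 1 array each, and the labels call the wild-type mice littermates of the mutants. All mice were C57BL/6J, untreated and labelled only by genotype, sex, age and mouse number. The labels do not say how the gene was disrupted, and no promoter, Cre or drug is named. Brains entered if the mouse number carried the letters B4 and the signal ratio of the 3′ to the 5′ Gapdh control probe set was at least 1. Of 8 brains with B4 numbers, 6 met the rule, 3 null and 3 wild-type. The null brains came from females of 7, 8 and 8 weeks (named null 3, null 4 and null 5 here). The wild-type brains came from males of 9 and 8 weeks (wild-type 1 and wild-type 2) and a female of 7 weeks (wild-type 3). The sexes are therefore uneven, with 0 males among the null and 2 among the wild-type brains, and genotype and sex cannot be told apart beyond the single wild-type female. Left out were 2 null brains from males of 9 weeks (null 1 and null 2) with ratios of 0.859 and 0.798. A further 3 wild-type brains, from 2 males and 1 female of 6 weeks, carried LT numbers and served only for side-by-side values. Every brain is a separate mouse, and 1 array per mouse means that the spread below holds both mouse and array variation.

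Nicotinic receptors are ion channels of the Cys-loop family that open when acetylcholine binds. The β4 subunit, the product of Chrnb4, combines mainly with the α3 subunit, and the genes for β4, α3 and α5 lie side by side on mouse chromosome 9. In the brain such receptors are best known from the medial habenula and its target, the interpeduncular nucleus, and they are abundant in autonomic ganglia. These nuclei are a small share of a whole brain. In an extract of a whole organ, fewer cells of a type and less RNA per cell cannot be told apart.

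The deposited values are MAS5 signals, one linear intensity per probe set and array, and the trimmed mean of every array was set to 150.1. Values of 12488 probe sets were given, and 7453 with a mean log2 signal of at least 4.62 (a signal of 24.6) over the 6 arrays were tested. No probe set was named for Chrnb4, Chrna3, Chrna4 or Chrna5, so the genotype labels could not be checked on the disrupted gene. The label of matched RNA was met only in part. The Gapdh ratio, which chose the arrays, was 4.35, 3.87 and 3.91 in wild-type 1 to wild-type 3 and 2.75, 2.19 and 3.58 in null 3 to null 5, so the null brains were lower and did not overlap the wild-type. The lowest ratio inside the rule was 2.19 and the highest outside it 0.859. The actin 3′ to 5′ ratio, which the rule did not use, of null brains was 3.40 ± 0.544 (SD, n = 3) and that of wild-type brains 3.97 ± 0.342 (SD, n = 3; two-sided exact permutation p = 0.2, where 0.1 is the smallest p that 3 against 3 allows). The median signal was 46.5 ± 0.265 in null and 45.9 ± 3.39 in wild-type brains (SD, n = 3 each, exact permutation p = 1). Wild-type 1 stood apart on the component with most of the variance (32.4%), at -32.8 against 0.888 to 14.5 on the other arrays. The next component (20.7%) separated the genotypes, with wild-type brains at -18.3 to -6.28 and null brains at 3.71 to 20.4. That the wild-type female, at -6.28, lay on the wild-type side is part of this separation and says nothing about sex. The Gapdh ratio was split in the same way, and its part was not tested.

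Among the genes nearest to a difference, several lie on chromosome 9, the chromosome of Chrnb4. The 250 bases before the start of 3 of them are shown, because these are genes whose signal in all 5 null brains lay beyond that in all 6 wild-type brains. They were chosen after their values were seen from 9 such probe sets on chromosome 9, and carry no evidence of their own. Sequences and coordinates are those of RefSeq on GRCm38.p6, 5′ to 3′ on the strand of the gene. Capitals mark, on either strand, the CCAAT box, the GC box GGGCGG and the TATA box TATAAA.
Spg21, chr9:65460687-65460936, plus strand: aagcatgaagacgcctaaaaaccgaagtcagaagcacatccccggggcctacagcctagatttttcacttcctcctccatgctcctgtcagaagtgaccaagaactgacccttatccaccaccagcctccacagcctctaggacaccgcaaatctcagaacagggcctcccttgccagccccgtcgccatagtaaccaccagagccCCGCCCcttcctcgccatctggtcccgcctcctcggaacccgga
Neo1, chr9:59036442-59036691, minus strand: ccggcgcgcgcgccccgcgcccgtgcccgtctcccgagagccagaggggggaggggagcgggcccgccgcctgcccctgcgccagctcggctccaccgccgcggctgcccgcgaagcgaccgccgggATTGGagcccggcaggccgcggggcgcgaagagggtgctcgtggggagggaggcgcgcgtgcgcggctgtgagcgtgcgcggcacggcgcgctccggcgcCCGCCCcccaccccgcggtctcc
Pts, chr9:50528657-50528906, minus strand: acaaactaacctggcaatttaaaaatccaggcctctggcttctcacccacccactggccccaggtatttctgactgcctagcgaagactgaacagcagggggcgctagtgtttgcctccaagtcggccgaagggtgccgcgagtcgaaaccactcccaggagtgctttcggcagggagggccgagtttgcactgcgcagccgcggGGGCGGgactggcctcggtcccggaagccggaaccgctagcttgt
Each of the 3 windows holds 1 GC box match, a motif that also occurs in 32.9% of the windows of all 27025 genes in the table. The Neo1 window also holds 1 CCAAT match, found in 34.5% of all windows, and none of the 3 holds the TATA box, found in 13%. GC content was 58.4% before Spg21, 83.2% before Neo1 and 61.6% before Pts, against a median of 52% over all windows. These matches describe letters in the window and say nothing of binding.

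No probe set differed between null and wild-type brains past the threshold. With limma, 0 of 7453 probe sets (0%) had a Benjamini-Hochberg adjusted p under 0.05, and the lowest adjusted p was 0.2, for Spg21. At an unadjusted p under 0.05 there were 310 (4.16%), of which 161 (2.16%) were higher and 149 (2%) lower in null brains. With each array centred on its median these became 105 higher and 184 lower, so the balance of directions rests on the scaling. The 3 null values lay entirely outside the 3 wild-type values for 713 probe sets (9.57%), above them for 366 (4.91%) and below them for 347 (4.66%). The median absolute log2 difference was 0.138, smaller than the median standard error (SE) of 0.194, and 69 probe sets differed by at least 1 on the log2 scale. Without wild-type 1, the array that stood apart, limma again called 0, and 558 had an unadjusted p under 0.05. Sex as a covariate gave 1 call (0.0134%), Itgav, which encodes the integrin αV chain. Its difference was then 4.36 on the log2 scale (limma adjusted p = 0.0136), but 1.42 without the covariate (adjusted p = 0.979), and the covariate fit sets 3 null brains against 1 wild-type female.

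**Figure D1:**
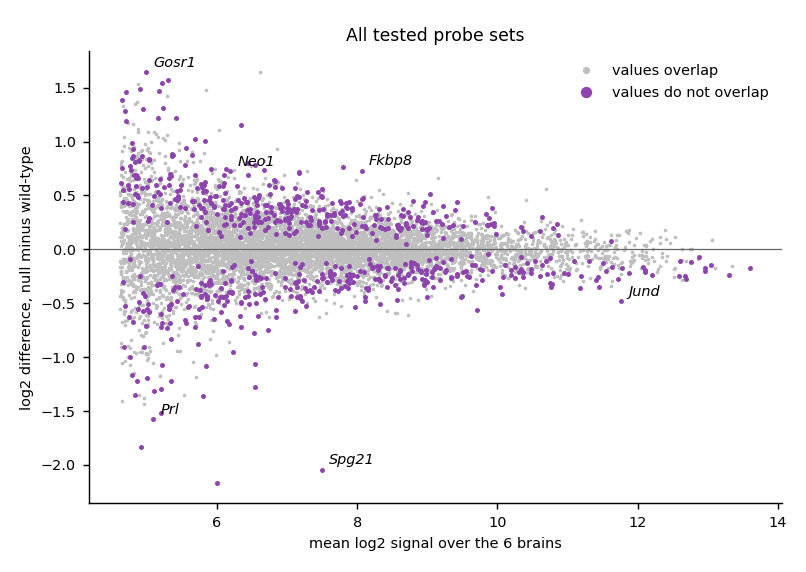
Each point is one of the 7453 tested probe sets, with its mean log2 signal over the 6 brains on the horizontal axis and its log2 difference, null minus wild-type, on the vertical axis. Purple points are the 713 whose null and wild-type values do not overlap; they spread to both sides of 0, and Spg21 lies at -2.04, apart from other bright probe sets.

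Spg21 ranked first by p. It encodes maspardin, an endosomal protein whose loss causes a hereditary spastic paraplegia in humans. Its signal was 534.2, 432.9 and 211.6 in wild-type 1 to wild-type 3 and 83.4, 82 and 102.1 in null 3 to null 5. The null brains were low and alike, the wild-type female lay between them and the wild-type males, and the groups did not overlap. The log2 difference was -2.04 (SE 0.29, 95% interval -2.68 to -1.40), a 4.12-fold lower level, with an unadjusted p of 2.68e-05 and an adjusted p of 0.2 in limma. Against the wild-type female alone the null brains differed by -1.25, and that female differed from the wild-type males by -1.18.

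The brains outside the comparison are set beside these values, although they were among the arrays of the earlier results that named Spg21. In LT wild-type brains (wild-type 4 to wild-type 6) the signal was 441.1, 426.8 and 477, the second of them a female, and in the left-out null males it was 47.6 and 49.4. The 5 null brains, of either sex, thus had lower values than any of the 6 wild-type brains. The difference passed the threshold with limma in 4 of 20 alternative fits. These were -2.44 without wild-type 3 (adjusted p = 0.00127; 0.0134% called), -1.87 with age in the model (adjusted p = 0.0291; 0.0134% of probe sets called), -2.34 with the LT in place of the B4 wild-type brains (adjusted p = 0.000131; 0.55% called) and -2.43 with the left-out null brains added and sex as a covariate (adjusted p = 0.0212; 0.389% called). Without wild-type 3, the only female among the B4 wild-type brains, null females faced wild-type males only, so genotype and sex could not be told apart. In the 5 brains outside the rule taken alone the difference was -3.21 (limma adjusted p = 4.5e-05), but there 25.1% of all probe sets passed. Its only probe set is of a class whose probes can match more than one transcript. The adjusted p was 0.309 with sex and 0.998 with the Gapdh ratio as a covariate, where the differences were -1.25 and -1.65. Spg21 was already known from earlier results on these arrays, so its values describe it and are no independent support.

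**Figure D2:**
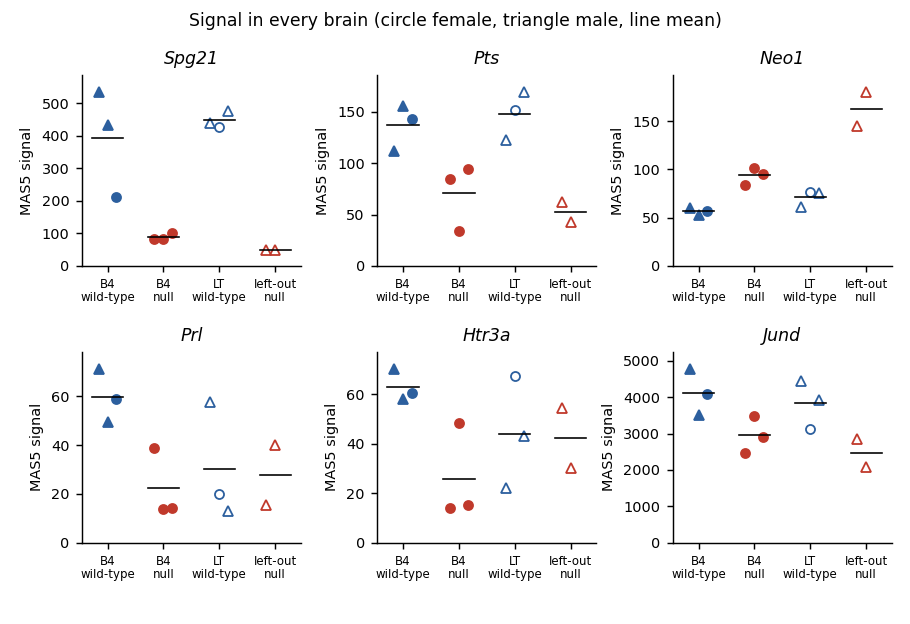
MAS5 signal of 6 genes in every brain, in 4 columns (B4 wild-type, B4 null, LT wild-type and left-out null), with circles for females, triangles for males, filled symbols for the 6 compared brains, open symbols for the 5 others and a line at each mean. Spg21, Pts and Neo1 keep all null brains on one side of all wild-type brains, whereas Prl and Htr3a separate only the filled symbols.

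Among the 12 leading genes with higher signal in null brains, chosen by p and none of them past the threshold (limma adjusted p = 0.979 for each), Gosr1 had the widest gap. It encodes a SNARE protein of the Golgi apparatus. Its signal was 13.9, 31.1 and 13.5 in wild-type and 60.8, 52.1 and 56.3 in null brains, which did not overlap, and the difference was 1.64 (SE 0.39), 3.13-fold. In LT wild-type brains, however, it was 71.8, 51 and 31, a range that takes in the null values.

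Rab34 and Rab31 encode small GTPases of vesicle traffic. Rab34 gave 109.3, 100.7 and 130.9 in wild-type and 169.4, 198.6 and 186.4 in null brains, a difference of 0.71 (SE 0.16). All 3 LT wild-type brains also lay below the null brains, at 118.9 to 139.4, but the left-out null males were at 143.4 and 135.4. Rab31 gave 110.4, 95.2 and 136.9 against 161.8, 203.6 and 193, a difference of 0.71 (SE 0.18). Its LT wild-type values of 174.5 to 198.4 overlapped the null range, and its other probe set differed by 0.12. Clip3, a microtubule-binding protein of the trans-Golgi network, gave 16.7, 37.9 and 34.4 against 67, 72.1 and 57.1 (1.22, SE 0.34). LT wild-type brains at 78.2, 19.2 and 73 overlapped the null values, and in their place the difference was 0.44. Gnaz, the αz subunit of heterotrimeric G proteins, gave 53.8, 31.8 and 27.8 against 79.6, 60.1 and 83.5 (1.02, SE 0.30). With the LT wild-type brains in place of the B4 ones, Gnaz turned to -0.54. Ptpru, a receptor tyrosine phosphatase, gave 58.4, 78.9 and 78.5 against 106.5, 134 and 128.5 (0.78, SE 0.20).

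Fkbp8, an immunophilin of the mitochondrial outer membrane, gave 177.2, 271 and 186.6 in wild-type and 320.6, 378.1 and 337.8 in null brains (0.73, SE 0.18). The left-out null brains were at 1192 and 1090, but the LT wild-type brains were at 251.6, 463.6 and 272.4, one of them above all 3 null brains, and in their place the difference was 0.12. Tcp1, a subunit of the cytosolic chaperonin, gave 67.4, 78.8 and 53.7 against 133.7, 96.4 and 116.7 (0.80, SE 0.21). Hnrnpll, a regulator of splicing, gave 192.9, 182.9 and 142.2 against 299.5, 229.6 and 357.7 (0.76, SE 0.19), and 2310061I04Rik gave 429.5, 502.6 and 400 against 566.8, 641.6 and 686.7 (0.51, SE 0.13). Neither Hnrnpll nor 2310061I04Rik kept its direction in the 5 brains outside the rule, where the differences were -0.03 and -0.21. Parp6, a mono-ADP-ribosyltransferase, gave 227.4, 232.9 and 225.7 against 345.7, 284.8 and 328.4 (0.48, SE 0.13). Neo1 encodes neogenin, a receptor for netrins and repulsive guidance molecules. Its signal was 60.1, 52.9 and 57.1 in wild-type and 84.4, 101.9 and 95.6 in null brains (0.73, SE 0.19). In LT wild-type brains it was 61.1 to 77 and in left-out null males 145 and 180.1, so that every null value exceeded every wild-type value.

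**Figure D3:**
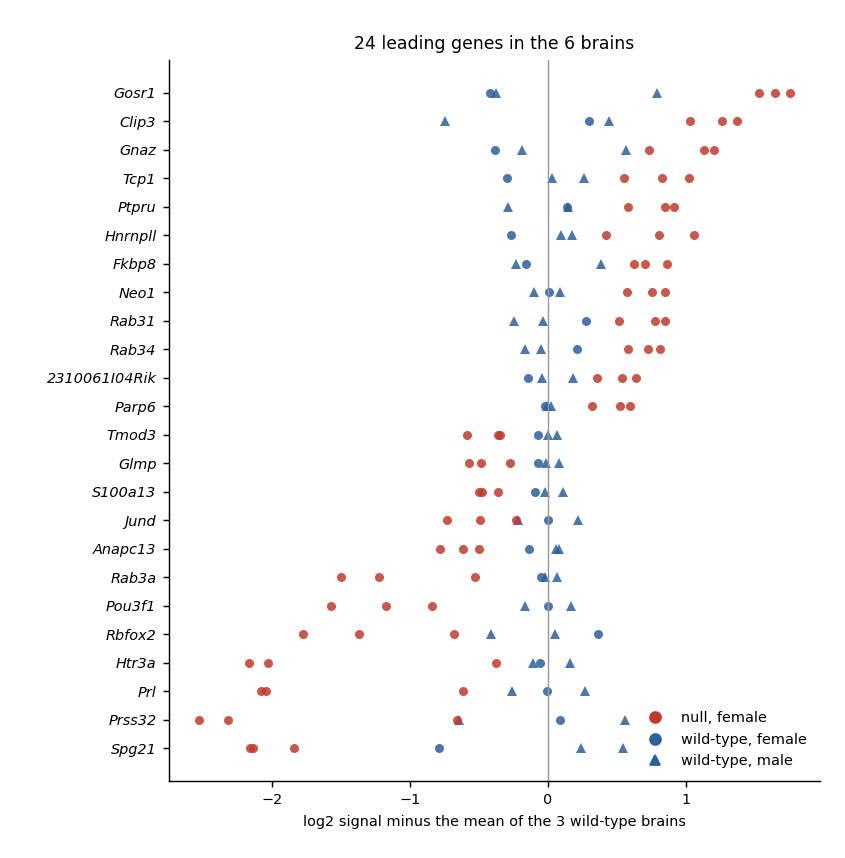
Log2 signal of the 24 leading genes in each of the 6 brains, relative to the mean of the 3 wild-type brains; circles are females and triangles males, null in red and wild-type in blue. No gene has overlapping groups, but genes were chosen by p, and the null and wild-type points of Jund and Prss32 all but touch.

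The 12 leading genes with lower signal in null brains also missed the threshold, Spg21 included, and 2 of them act at synapses. Htr3a encodes a subunit of the 5-HT3 receptor, the serotonin-gated relative of the nicotinic receptors. Its signal was 70.1, 58.1 and 60.4 in wild-type and 14, 48.3 and 15.4 in null brains (-1.52, SE 0.45), and null 4 lay near the wild-type. LT wild-type brains at 22, 67.4 and 43 and left-out null males at 54.4 and 30.2 spanned both groups. Rab3a, the GTPase of synaptic vesicles, gave 87.9, 82.6 and 81 against 29.7, 58.2 and 35.8 (-1.08, SE 0.27), but 35.7 to 57.7 in LT wild-type brains. Prl, outside that group, encodes prolactin, a hormone of the anterior pituitary. It gave 71, 49.3 and 58.7 against 38.6, 14 and 14.3 (-1.58, SE 0.42), with LT wild-type brains at 57.6, 19.9 and 12.9. Prl was the 1 of 4 tested pituitary genes without overlap (25%, against 9.57% of all tested probe sets). The median of the 4 was 0.07. The other hormone genes tested overlapped between the groups, with differences of 0.15 for Gh, -0.01 for Pomc and 0.15 for Lhb. The summed signal of the pituitary list was 241.5 to 306 in null and 230.6 to 372.9 in wild-type brains.

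Rbfox2, a splicing factor of neurons, gave 108.8, 149.9 and 186.4 against 42.4, 90.5 and 56.1 (-1.27, SE 0.29), and Pou3f1, a POU-domain transcription factor, gave 54.3, 43.1 and 48.3 against 21.5, 16.3 and 27 (-1.19, SE 0.33). Jund, a subunit of the AP-1 transcription factor, was the brightest of the 24 and gave 4765, 3516 and 4089 against 2472, 3494 and 2907 (-0.48, SE 0.14). The gap between its groups was small next to the spread within each. For Rbfox2 the 5 brains outside the rule gave 0.31, the other sign.

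Glmp, S100a13, Tmod3, Anapc13 and Prss32 complete the lower genes. Glmp, a lysosomal membrane glycoprotein, gave 586, 627.6 and 563.7 against 399.1, 489.4 and 424 (-0.44, SE 0.12), and S100a13, a calcium-binding protein, gave 318.4, 348.7 and 302.3 against 228.9, 232 and 250.9 (-0.44, SE 0.13). Like Spg21 and Neo1, both kept all 5 null brains beyond all 6 wild-type brains, and the left-out null brains were lowest of all (365.6 and 356.9 for Glmp, 140 and 122.9 for S100a13). Further tested probe sets of S100a13 differed by only -0.08 and -0.15. Tmod3, which caps actin filaments, gave 842, 878.3 and 799.6 against 660.2, 652.3 and 560 (-0.43, SE 0.11). Anapc13, a subunit of the anaphase-promoting complex, gave 149.2, 151.4 and 130.3 against 83.4, 93.8 and 101.5 (-0.63, SE 0.17). Its LT wild-type brains, at 90.7, 79 and 118.6, took in the null range, and in their place the difference was -0.03. The other, brighter probe set of Anapc13 differed by -0.25. Prss32, a serine protease, gave 36.6, 84.1 and 60.8 against 36.2, 9.9 and 11.5 (-1.83, SE 0.53), with a gap of less than 1 signal unit between null 3 and wild-type 1. Its other probe set differed by 0.09.

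Of these 24 genes, 18 (75%) had the same sign in the 5 brains outside the rule, against 58.4% of all tested probe sets and 66.9% of the 713 without overlap. All 5 null brains lay beyond all 6 wild-type brains for 4 of the 24 (16.7%). The same held for 81 of the 713 without overlap (11.4%), a set that holds all 24. These 81 were 1.09% of all tested, 45 of them higher and 36 lower in null brains. The wild-type female lay nearer to the null brains than both wild-type males did for 8 of 24 genes (33.3%). These were 2 of the 12 higher and 6 of the 12 lower genes. The share was 35.7% of all tested probe sets and 41.4% of the 713 without overlap. Because the groups of all 24 did not overlap, neither leaving out an array nor sex as a covariate could turn a sign, and none turned. With the LT in place of the B4 wild-type brains, 16 of the 24 differences shrank by over 1.5 times or turned, among them Tcp1 (0.27), Parp6 (0.14), Hnrnpll (0.13), 2310061I04Rik (0.13), Rbfox2 (-0.19), Rab3a (-0.21), Prl (-0.31) and Prss32 (-0.14). With the Gapdh ratio as a covariate, Pou3f1 was at -0.62 and Clip3 at 0.74. A probe set with no gene name ranked next to Spg21 by p and was singled out after its values were seen. It gave 98.5, 263.3 and 97.8 in wild-type and 39.3, 24.9 and 28.7 in null brains (-2.17, SE 0.37, limma adjusted p = 0.505), and LT wild-type brains at 25.4 to 73.6 overlapped the null range. Pycrl, a proline synthesis gene called earlier over all 11 arrays, gave 48.5, 49.3 and 16.7 against 63, 59.2 and 75.6 (0.94, SE 0.40, limma adjusted p = 0.979). Its wild-type female was the lowest of the 6, and the groups did not overlap.

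Around Chrnb4 itself, 200 protein-coding neighbours, 100 on each side, gave 63 tested genes. Their null and wild-type values did not overlap for 11, 4 above and 7 below, which is 17.5% against 9.47% of all genes tested. At an unadjusted p under 0.05 there were 7 (11.1%, against 3.97% of all genes), 2 higher and 5 lower, and the median difference was 0.03 against 0.01. Within 25 genes on each side 1 of 12 did not overlap, and within 50 it was 3 of 26. Over the whole of chromosome 9, 34 of 301 genes did not overlap, 12 above and 22 below. This count is a description, because chromosome 9 genes were known from earlier results to lead the list.

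The neighbours that did not overlap serve unlike functions. Pts makes a step of tetrahydrobiopterin synthesis, the cofactor of monoamine synthesis. Its signal was 111.7, 155.5 and 143.2 in wild-type and 84.7, 34.1 and 94.6 in null brains (-1.06, SE 0.34), and each of the 5 null values was under each of the 6 wild-type values. With the Gapdh ratio as a covariate, however, the difference was -0.13, and without null 4 it was -0.60. Dlat, a subunit of pyruvate dehydrogenase, gave 148.1, 204.3 and 178.7 against 131.9, 115.8 and 131.6 (-0.48, SE 0.17), while its other, dimmer probe set differed by 0.35. Adpgk, a glucokinase that uses ADP, gave 61, 66.1 and 64.9 against 52, 44 and 45.9 (-0.44, SE 0.22). Sema7a, a membrane-anchored semaphorin, had probe sets that disagreed, the brighter differing by -0.48 (SE 0.17) and the dimmer by 1.39 (SE 0.51). Myo9a, an unconventional myosin, differed by -0.43 (SE 0.21) and Wdr61, a subunit of the Paf1 complex, by 0.19 (SE 0.12). Spg21 lies farther off, 123 genes from Chrnb4.

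**Figure D4:**
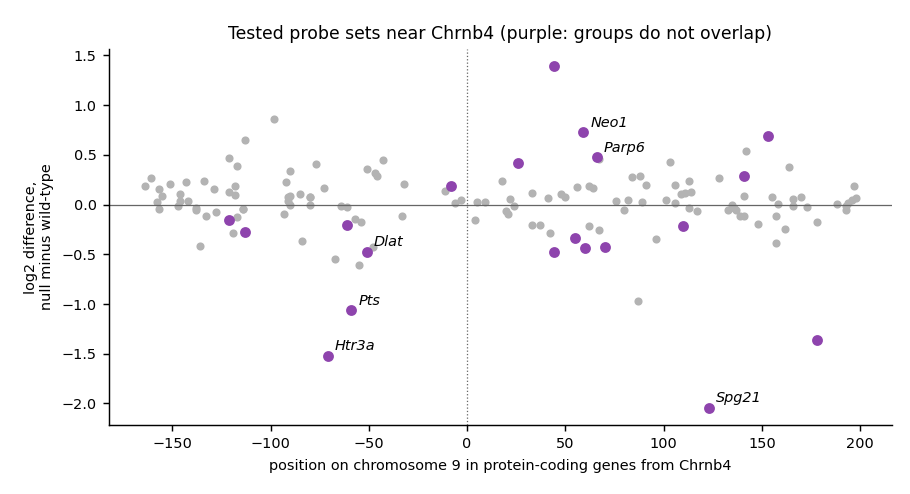
Log2 difference, null minus wild-type, of tested probe sets by their place on chromosome 9, counted in protein-coding genes from Chrnb4 (dotted line at 0). Purple points, whose groups do not overlap, lie on both sides of Chrnb4 and of zero difference; Spg21 is the lowest, at -2.04.

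Of 16 nicotinic receptor subunit genes, 8 had a probe set and 4 were tested by their brightest one. None passed the threshold, and 0 of 4 had groups that did not overlap, against 9.57% of all tested probe sets. The median difference was -0.24 against 0.02 over all tested probe sets. Chrna7, the subunit of homomeric α7 receptors, gave 64.9, 48.3 and 62.6 in wild-type and 59.3, 42.6 and 36.2 in null brains (-0.37, SE 0.27), which overlapped. Chrna6, found mainly in midbrain dopamine neurons, gave 32, 32.4 and 17.9 against 20.2, 19.9 and 35.9 (-0.12, SE 0.43), also overlapping. Among muscle-type subunits the probe sets disagreed. For Chrng, the tested one differed by -1.35 (SE 0.54) and overlapped, whereas the other, too dim to be tested, differed by 1.498. For Chrne, the tested one differed by 0.61 (SE 0.33) and the dim others by -0.17 and -0.06. Chrna1, Chrnb1, Chrnb2 and Chrnd were too dim to be tested, with differences of 1.36, -0.78, 0.58 and 0.03.

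The habenular and cholinergic lists were chosen for the known sites of β4, but few of their genes could be tested. Of 10 genes in the habenula and interpeduncular list, only 5 had a probe set, and these 5 were tested. The median difference was 0.13, against 0.02 over all tested probe sets. Of the 5, 1 did not overlap (20%, against 9.57% of all tested). Nr4a2, a nuclear receptor also needed for dopamine neurons, was the only one without overlap, at 19.7, 27.9 and 32.8 in wild-type and 43.4, 42.1 and 37.9 in null brains (0.65, SE 0.33). The peptide genes Tac1 and Tac2 differed by 0.13 and -0.33 and overlapped. Of 12 cholinergic and muscarinic genes, 7 had a probe set and only 1 was bright enough to be tested. Its difference was 0.07, and 1 gene cannot speak for the list.

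Across 41 lists of 654 tested probe sets, 40 lay entirely above and 37 entirely below the wild-type values (11.8% together, against 9.57% of all tested), and limma called 0 in every list. The median differences of the 38 lists with at least 4 tested members ran from -0.24 (nicotinic subunits) to 0.19 (oligodendrocyte and myelin), against 0.02 over all tested probe sets. In the synaptic vesicle list, 4 of 30 did not overlap (13.3%, near the 9.57% of all tested; median 0.07). They were Rab3a, Ap2a2 (0.26, SE 0.12), Napb (0.22, SE 0.12) and Dnm1 (-0.17, SE 0.08). Further tested probe sets differed by 0.16 for Ap2a2, -0.17 for Napb and 0.06 for Dnm1. In the postsynaptic list it was 3 of 9 (33.3%, median -0.11), namely Cntn1 (-0.33), Homer3 (-0.14) and Dlg1 (0.11). Summed linear signals, to which bright members contribute most, were lower in all null than in all wild-type brains for 7 of the 38 lists and higher for 0. These were the synaptic vesicle, postsynaptic, neuropeptide, voltage-gated channel, endothelial, respiratory chain and ribosomal lists. The synaptic vesicle sum was 25463 to 26768 in null and 27204 to 27720 in wild-type brains, and the respiratory chain sum 75613 to 76734 and 78159 to 84786. That the wild-type female lay with the wild-type males in these sums follows from how the 7 lists were picked, and says nothing about sex. The Gapdh ratio was split between the same brains, and its part was not tested.

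Monoamine genes gave 6 of 16 without overlap (37.5%, against 9.57% of all tested), 4 above and 2 below (median 0.08). Drd4, the D4 dopamine receptor, gave 69, 44.6 and 51.7 in wild-type and 81.5, 87.2 and 93.7 in null brains (0.69, SE 0.22), and Htr5b, a serotonin receptor, differed by 0.57 (SE 0.32). Pts and Htr3a were the members below. Of 27 neuropeptide genes tested, 3 did not overlap (11.1%, median 0.01). Trh, thyrotropin-releasing hormone, gave 28.4, 6.1 and 22.6 against 37.7, 44.2 and 48.8 (1.46, SE 0.55). Hcrt, the orexin precursor, gave 233.4, 292.7 and 254.4 against 213.5, 225.3 and 207.1 (-0.27, SE 0.14), and Cck, cholecystokinin, differed by -0.11 (SE 0.10). GABA genes (0 of 8, median 0.07) and glutamate genes (0 of 10, median 0.09) had none without overlap.

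Signalling and channel genes were as mixed. The voltage-gated channel list had 3 of 21 below and 0 above (14.3%, against 9.57% of all tested for either side; median -0.10), with Kcnh1 at -0.91 (SE 0.49) and Kcnab2 at -0.20 (SE 0.13). The calcium list had 3 of 15 above and 0 below (20%, median 0.13), with Ryr1 at 0.60 (SE 0.31) and Hpca, hippocalcin, at 0.24 (SE 0.11). G protein signalling had 2 of 36 above and 3 below (13.9%, median 0.02), with Gnaz and Rgs7 (0.39) above and Gnb1 (-0.26) and Gnas (-0.24) below. For Kcnab2 and Gnb1 another probe set pointed the other way, at 0.43 and 0.48. Immediate-early genes had 1 of 20 above and 1 below (10%, median -0.08).

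**Figure D5:**
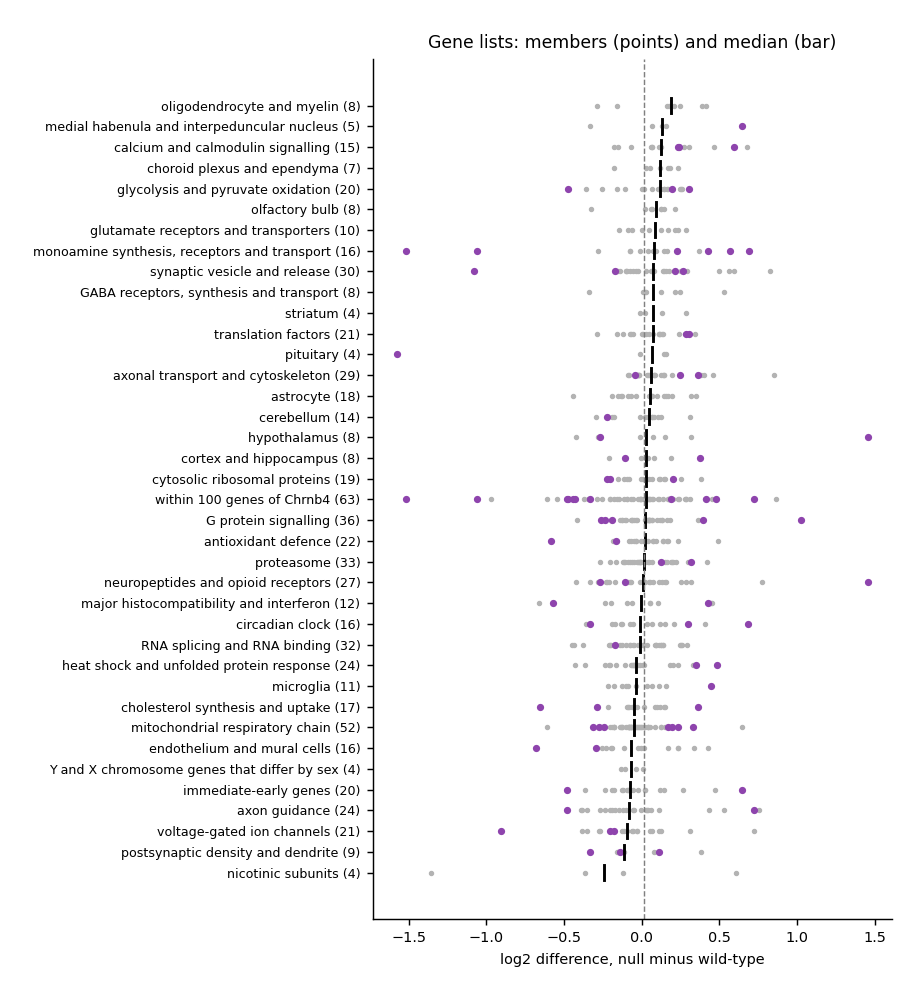
Log2 difference of each tested member of the 38 lists with at least 4 tested members (points; purple where null and wild-type values do not overlap), with each list's median as a bar and its number tested in brackets. The medians lie between -0.24 and 0.19, close to the dashed line at the median of all tested probe sets (0.02).

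Cell-type markers checked the tissue and its make-up. Markers of oligodendrocytes, astrocytes, microglia and vessels were present in all 6 brains, apart from some too dim to be tested, such as Cnp, and their summed signals overlapped between the groups for oligodendrocytes (6480 to 7285 in null and 5926 to 7831 in wild-type brains), astrocytes (31068 to 33354 and 32220 to 33316) and microglia (2029 to 2315 and 2113 to 2261). For endothelium and mural cells the sum was 1486 to 1635 in null and 1643 to 1800 in wild-type brains, which did not overlap. There 2 of 16 (12.5%, against 9.57% of all tested) lay below, Pecam1 (-0.68, SE 0.30) and Cdh5 (-0.29, SE 0.21), both adhesion proteins of endothelial cells, and the median was -0.07. Among 8 oligodendrocyte genes none was without overlap, and Mbp, the myelin basic protein, gave 1624, 2748 and 2510 in wild-type and 2433, 2496 and 2574 in null brains, lowest in the array that stood apart. In the microglial list (1 of 11, 9.09%, median -0.04) C1qa, a complement chain, gave 110.8, 145.7 and 141.1 against 176.4, 190.3 and 172.7 (0.45, SE 0.16). LT wild-type brains, at 154.4, 242.5 and 150.3, took in these null values, and in their place the C1qa difference was 0.01. Left-out null males were at 480.8 and 427.3. Astrocyte genes (0 of 18, median 0.05), choroid plexus genes (0 of 7, median 0.12) and erythroid genes (0 of 3, median 0.09) all overlapped. Of 2 pineal and retinal genes tested, Crx lay above, at 0.99 (SE 0.43), and the median was 0.56.

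Brain-region lists are read against the 9.57% of all tested probe sets without overlap. Cerebellar genes had 1 of 14 without overlap (7.14%, median 0.05), Zic1 at -0.22 (SE 0.10), and cortical and hippocampal genes 2 of 8 (25%, median 0.03), Fezf2 at 0.37 (SE 0.15) and Cck. Hypothalamic genes had 2 of 8 (25%, median 0.03), Trh and Hcrt, while striatal genes (0 of 4, median 0.07) and olfactory bulb genes (0 of 8, median 0.09) had none.

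Of 52 respiratory chain genes 7 did not overlap (13.5%, against 9.57% of all tested), 4 above and 3 below (median -0.05). Sdhc, a subunit of complex II, gave 776, 835.1 and 842.6 in wild-type and 1103, 1056 and 928.6 in null brains (0.33, SE 0.11). The ATP synthase subunits Atp5j and Atp5l gave -0.31 (SE 0.11) and -0.28 (SE 0.11), and Cycs, cytochrome c, 0.23 (SE 0.13). A dimmer tested probe set of Atp5l differed by 0.65. Of 20 glycolysis and pyruvate genes 3 did not overlap (15%, median 0.12), Pgk1 (0.30) and Tpi1 (0.20) above and Dlat below. The proteasome had 2 of 33 (6.06%, median 0.01), Psmd12 (0.32) and Psmb4 (0.13).

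Ribosomal protein genes had 3 of 19 without overlap (15.8%, against 9.57% of all tested; median 0.03), Rpl13a (0.20) above and Rps7 (-0.22) and Rps28 (-0.20) below, and translation factors 2 of 21 (9.52%, median 0.07), Eef2 (0.31) and Eef1d (0.29). In the heat shock and unfolded protein list 2 of 24 lay above (8.33%, median -0.04). Of these Atf4, a transcription factor of the integrated stress response, gave 432.3, 514.7 and 495.9 against 577, 643.6 and 613.9 (0.35, SE 0.12), and Pdia3, a folding enzyme of the endoplasmic reticulum, differed by 0.49 (SE 0.16). Antioxidant genes had 2 of 22 (9.09%, median 0.02), both below: Hmox2, haem oxygenase, at -0.58 (SE 0.20) and Gstm5 at -0.16 (SE 0.08). Further tested probe sets of Gstm5 differed by 0.28, -0.51 and -0.33. Splicing genes had 1 of 32 (3.13%, median -0.01), Snrpe at -0.17 (SE 0.11).

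Clock genes had 3 of 16 without overlap (18.8%, against 9.57% of all tested; median -0.01), Cry1 at -0.34 (SE 0.12) and Csnk1d and Rora at 0.30 and 0.69. Further tested probe sets of Csnk1d differed by -0.18 and 0.13. Cholesterol genes also had 3, of 17 (17.6%, median -0.05), Cyp51 at -0.65 (SE 0.27), Fdft1 at -0.29 (SE 0.12) and Fdps at 0.36 (SE 0.16). Histocompatibility and interferon genes had 2 of 12 (16.7%, median -0.0047), Tap1 at -0.57 and Irf7 at 0.43. Axonal transport genes had 3 of 29 (10.3%, median 0.06), Tuba4a (0.36), Uchl1 (0.25) and Stmn2 (-0.04), and axon guidance genes 2 of 24 (8.33%, median -0.08), Neo1 and Sema7a. Another tested probe set of Stmn2 differed by 0.07. Of 24 further tested probe sets for the leading and list genes, 13 had the sign of the one given and 11 the opposite.

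Sex-linked genes were read against the uneven split. Eif2s3y, on the Y chromosome, gave 74.4 and 89.1 in the wild-type males, 9.3 in the wild-type female and 7.5, 5.4 and 1.5 in the null females, and Uty gave 41.4 and 27.1, then 2.8, then 2.2, 2 and 6.5. Both were high only in labelled males. Xist, the RNA of the inactive X chromosome, gave 14.7 and 1.4 in the wild-type males, 65.9 in the wild-type female, and 9.9, 78.7 and 75.6 in null 3 to null 5, so null 3 was low for a female label while its Y-linked signals were low too. Eif2s3y, Uty and Xist, like Kdm5d, Sry and a Ddx3x probe set, had a mean signal under the filter and were not tested. Kdm6a, Eif2s3x, Usp9x and the brighter Ddx3x probe sets, X-linked genes that partly escape inactivation, were tested, and their differences ran from -0.13 to 0.40 with overlapping groups. The median over the 4 sex-linked genes tested was -0.07.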

How the data were processed

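The authors deposited one linear MAS5 signal intensity per probe set and array, made per the submitters' processing notes; the MAS5 version and settings are not given in the sources used here. The labels' protocols name TRI Reagent extraction, column clean-up and an Enzo biotin labelling kit. The arrays were used as scaled, with 0 columns unmapped. Of 12488 probe sets, 66 controls were left out, 10855 had 1 gene, 396 several and 1237 none, and 10839 matched the GRCm38.p6 gene table. Signals under 3.1, the 10th percentile of the 6 arrays, were raised to it and log2 values taken, so folds of dim probe sets are understated. Probe sets under the 40th percentile of mean log2 signal were not tested. limma 3.58.1 in R 4.3.3 (lmFit, eBayes with trend, Benjamini-Hochberg over 7453 probe sets, adjusted p threshold 0.05) compared null with wild-type without covariates. Single array quantities were compared by exact permutation in Python 3.11.15. The number of arrays limits the precision.

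Named were all passing probe sets, filled by p to 12 higher and 12 lower, all nicotinic and sex-linked genes, Spg21 and Pycrl, and in each list up to 2 highest and 2 lowest members without overlap. A list gene entered through its brightest probe set. The members and lists were chosen with earlier results of these data known. The pipeline was tested on simulated data. The alternatives were covariates (sex, age, Gapdh ratio), other arrays, normalizations, floors, filters and leaving out each array; the comparison of the 5 brains outside the rule was added after seeing the data.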

Additional observations from a re-analysis of the deposited data

How the results depend on the processing

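limma called 0 of 7453 probe sets in the comparison as reported. The count was also 0 of 7453 under quantile normalization, median centring, floors at the 5th and 20th percentile, a pseudocount of 16 and no variance trend. The same held with the Gapdh ratio as a covariate and with the LT wild-type arrays added and sex as a covariate. Without the signal filter limma called 0 of 12422, and with the 60th percentile filter 0 of 4969. It called 1 with sex and 1 with age as a covariate, 41 with the LT in place of the B4 wild-type arrays, 29 with the left-out null arrays added and sex as a covariate, and 1867 in the 5 arrays outside the rule. Leaving out each array gave 0 to 1 calls, the 1 being Spg21 without wild-type 3, the only female among the B4 wild-type brains. The cause of these differences was not tested. With 3 arrays a group, 1 wild-type female and a median SE of 0.194, small differences were not detectable. No paired analysis was possible because replicate numbers only name the samples and the groups share no mouse or litter label. Of 92 tested named probe sets, 55 kept their sign under all 20 alternatives. For those without overlap, leaving out an array or adding sex could not turn the sign, so these fits are no support. In the 5 arrays outside the rule, which share no array with the comparison, 26 of the 92 turned and 34 passed the threshold in the same direction. Of all tested probe sets, 58.4% had the same direction there, and 25.1% passed in either direction. These arrays set null brains with Gapdh ratios of 0.859 and 0.798 against LT wild-type brains at 3.57 to 5.92. Genotype cannot be told apart there from the ratio or the mouse number letters. The values that turned are given as log2 differences, and the cause was not tested. In the 5 outside arrays they were Hnrnpll -0.030, 2310061I04Rik -0.21, Rbfox2 0.31, Prl 0.024, Prss32 1.49, Htr3a 0.021, Chrna7 0.44, Kdm6a 0.44, Ddx3x (brightest probe set) 0.75, Usp9x (brighter probe set) 0.0097, Usp9x (dimmer probe set) 0.16, Kcnab2 0.41, Kcnh1 1.31, Ryr1 -0.80, Rgs7 -0.75, Pecam1 0.89, Cycs -0.51, Psmd12 -0.19, Psmb4 -0.17, Pdia3 -0.81, Rpl13a -0.047, Tap1 0.19, Cyp51 0.094, Stmn2 0.083, Sema7a 0.088, Hmox2 0.14. With LT in place of B4 wild-type arrays they were Rab31 -0.011, Gnaz -0.54, Kdm6a 0.36, Ddx3x (brightest probe set) 0.088, Usp9x (brighter probe set) 0.16, Nr4a2 -0.14, Cntn1 0.054, Kcnab2 0.14, Hpca -0.11, Rgs7 -0.24, Gnb1 0.025, Cdh5 0.011, Zic1 0.14, Cycs -0.12, Atp5l 0.068, Atp5j 0.10, Pdia3 -0.58, Rps28 0.062, Rps7 0.054, Rora -0.54, Fdft1 0.076, Stmn2 0.078, Sema7a 0.078, Snrpe 0.037, Gstm5 0.043. With sex as a covariate they were Chrna6 0.44, Chrne -0.022, Eif2s3x -0.25, Ddx3x (next probe set) -0.19. With age as a covariate they were Chrna6 0.017. With the Gapdh ratio as a covariate they were Chrna6 0.57, Chrne -0.043, Chrng 0.38, Kdm6a 0.26, Eif2s3x -0.044, Ddx3x (brightest probe set) 0.13, Usp9x (brighter probe set) 0.10. With LT arrays and sex they were Chrna6 0.11, Eif2s3x -0.17, Ddx3x (next probe set) -0.16, Usp9x (brighter probe set) 0.075, C1qa -0.042, Atp5l 0.12, Pdia3 -0.14, Rps28 0.038, Rps7 0.12, Uchl1 -0.027, Snrpe 0.10, Gstm5 0.028. With the left-out null arrays and sex they were Chrna7 0.13, Eif2s3x -0.16, Ddx3x (brightest probe set) 0.33, Usp9x (dimmer probe set) 0.045, Pecam1 0.042, Psmb4 -0.080, Rpl13a -0.019. With median centring they were Eif2s3x -0.020. Leaving out each array gave ranges of Chrna6 -0.40 to 0.025, Kdm6a -0.45 to 0.068, Eif2s3x -0.12 to 0.22, Ddx3x (brightest probe set) -0.25 to 0.10.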
